A study of Homo sapiens with 8 samples.

Results

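Interferon-stimulated genes are the genes that cells switch on after interferon binds its receptor. A set of 41 such genes was followed here in 2 human ovarian carcinoma cell lines treated with lovastatin, a statin that inhibits HMG-CoA reductase and so blocks the mevalonate pathway to cholesterol and isoprenoids. Members were found by gene symbol, as every beadchip probe whose platform annotation names one of the 41. This gave 63 probes for 40 genes, of 47323 probes on the chip; STAT2 was not analysed here. Of these, 45 probes of 36 genes had a detection p under 0.01 on at least 2 of the 8 arrays and entered the tests, beside all other detected genes, 11218 genes in total. OAS2 (4 probes), TRIM22, USP18 and SAMD9L had named probes that were too dim for that filter. The tested members are therefore not the whole set, and a member seen only where it was high could pass: 22 of the 36 were detected on all 8 arrays.

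The study set SKOV3 cells in the vehicle DMSO against SKOV3 cells in lovastatin, and OVCAR5 cells in DMSO against OVCAR5 cells in lovastatin. Lovastatin was given at 10 µM, treatment lasted 48 h, and all 4 groups grew in serum-containing RPMI medium. Each group had 2 arrays of total RNA, labelled with biotin, and no interferon was named among the treatments. Whether a group's arrays stem from separate cultures is unstated in the labels, so the p-values measure only the spread between these arrays, and the small number of arrays limits the precision.

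Interferons of type I and type III act through Janus kinases and lead to the assembly of ISGF3, a transcription factor complex that holds IRF9. ISGF3 binds the interferon-stimulated response element (ISRE), while interferon gamma acts mainly through gamma-activated sites (GAS). The induced proteins degrade viral RNA, block translation or entry, tag proteins with ISG15, or load peptides on HLA class I molecules. Many tumour cells express part of this set without added interferon, and IRF1 or the unphosphorylated form of ISGF3 can maintain it.

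Values are log2 intensities after background correction and quantile normalization over the 8 arrays, and they can be compared between arrays for a probe but not between probes. Between 15370 and 17231 probes were detected per array, of which 32 to 42 were probes of the members. Arrays of a group correlated at r = 0.988 to 0.994 over all tested genes. Of 6 epithelial markers, 5 were detected on both arrays of each SKOV3 group, and KRT8, KRT18 and EPCAM were detected in OVCAR5, while CDH1 was detected in neither line. Of 6 ovarian carcinoma markers, PAX8 was detected in both lines, MSLN and SOX17 in SKOV3 alone, and MUC16 and WT1 in neither. EMX2 was detected on 1 OVCAR5 lovastatin array. PAX8 read 9.50 and 9.55 in SKOV3 DMSO. In OVCAR5 DMSO it read 5.67 and 5.80, near the lowest detected signals of those arrays (5.49 and 5.59). The leukocyte markers PTPRC, CD3E, ITGAM and CLEC4C were detected on both arrays of no group, and their summed log2 level with CD14 and CD68 was 32.7 to 36.04 on the 8 arrays. CD68, a lysosomal protein, read 10.02 and 9.82 in SKOV3 DMSO and 12.14 and 11.77 in lovastatin, and 10.34 and 10.43 in OVCAR5 DMSO and 11.33 and 11.33 in lovastatin. CD14 was detected in OVCAR5 alone, where it rose from 5.94 and 5.92 in DMSO to 6.54 and 6.41 in lovastatin (0.54, adjusted p = 0.0173). The part of these genes in the results was not tested. The second SKOV3 lovastatin array ran above the first for 25 of the 36 members, by a median of 0.23, against a median of -0.0081 over all genes. In the other groups the median over members differed by -0.0073 to 0.042 between the arrays.

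Lovastatin was followed by higher expression of 12 of the 36 tested members in SKOV3 and of 12 in OVCAR5. In SKOV3, 4 members fell and 20 did not pass an adjusted p under 0.05; in OVCAR5, 1 fell and 23 did not pass. Over all tested genes the shares were 26.6% higher and 23.9% lower in SKOV3, against 33.3% and 11.1% of the members. In OVCAR5 the shares over all genes were 13.5% higher and 9.29% lower, against 33.3% and 2.78% of the members. The median change of the tested members was 0.18 on the log2 scale in SKOV3 (all genes, 0.03) and 0.31 in OVCAR5 (all genes, 0.01). With 2 arrays per group, treated and control arrays that do not overlap are common. Of all 11218 genes, 4303 lay apart as higher and 3914 as lower in SKOV3, and 3949 and 3572 in OVCAR5. Of the 36 members, 16 lay apart as higher and 8 as lower in SKOV3, and 22 and 7 in OVCAR5. In SKOV3, 7 members rose when the second lovastatin array was left out, and 2 fell without either DMSO array or without the first lovastatin array. In OVCAR5, 2 fell without the first DMSO array and 3 without the second lovastatin array. In a bulk sample, fewer cells expressing a gene and less RNA per cell cannot be told apart.

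Some of these calls were shared by the lines and others were not. The share of all genes with each joint pattern was not counted, so the counts below have no background beside them. IFI35, IFIT2, IRF7, IRF9 and ISG20 rose in both lines, and OAS3 fell in both. HERC5 and IFIT1 fell in SKOV3 and rose in OVCAR5. A further 7 members rose in SKOV3 without a call in OVCAR5 (IFI27, IFITM1, ISG15, PARP14, PSMB8, TAP1 and UBE2L6), and 5 rose in OVCAR5 without a call in SKOV3 (IFIH1, IFIT3, MX1, OASL and SAMD9). IFI44 fell in SKOV3 without a call in OVCAR5, and 15 members passed in neither line.

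**Figure D1:**
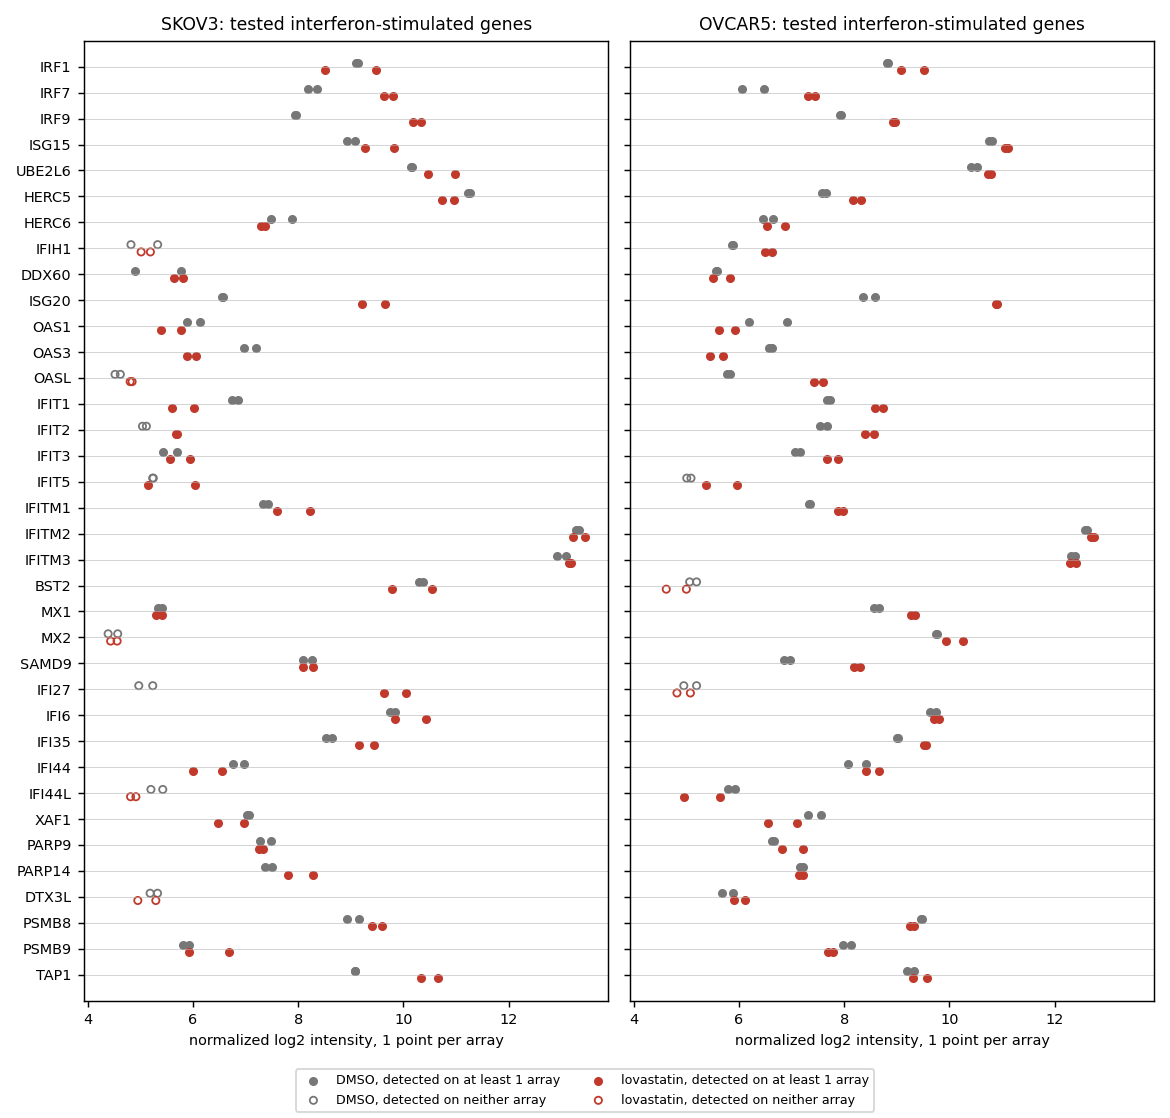
Normalized log2 intensity (horizontal axis) of each of the 36 tested interferon-stimulated genes (rows), with 1 point per array, SKOV3 on the left and OVCAR5 on the right. Grey points are DMSO arrays and red points lovastatin arrays; open points mark groups in which neither array detected the probe. ISG20, IRF9 and IRF7 lie to the right in lovastatin in both lines, IFI27 in SKOV3 only, and MX2 and BST2 are each detected in a single line.

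The upstream sequences of 6 members are shown because these genes carry the main patterns: IRF9 and ISG20 rose in both lines, IFIT1 moved in opposite directions, OAS3 fell in both, and IFI27 and TAP1 rose in SKOV3 with a tested difference between the lines. Each is the 250 bases before a RefSeq transcription start on GRCh38.p14, read 5′ to 3′ on the strand of the gene, with matches to the ISRE core (GAAANNGAAA) or the GAS core (TTCNNNGAA) on either strand in capitals.
IRF9 chr14:24161015-24161264, plus strand: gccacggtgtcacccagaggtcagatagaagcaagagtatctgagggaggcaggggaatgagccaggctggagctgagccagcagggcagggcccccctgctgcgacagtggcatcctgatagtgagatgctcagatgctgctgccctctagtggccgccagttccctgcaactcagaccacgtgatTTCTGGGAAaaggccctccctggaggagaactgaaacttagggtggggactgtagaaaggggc
ISG20 chr15:88638766-88639015, plus strand: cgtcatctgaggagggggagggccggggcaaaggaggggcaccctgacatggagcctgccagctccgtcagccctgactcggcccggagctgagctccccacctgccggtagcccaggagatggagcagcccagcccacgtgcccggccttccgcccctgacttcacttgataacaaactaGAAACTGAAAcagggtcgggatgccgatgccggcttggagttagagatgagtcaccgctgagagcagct
IFIT1 chr10:89392373-89392622, plus strand: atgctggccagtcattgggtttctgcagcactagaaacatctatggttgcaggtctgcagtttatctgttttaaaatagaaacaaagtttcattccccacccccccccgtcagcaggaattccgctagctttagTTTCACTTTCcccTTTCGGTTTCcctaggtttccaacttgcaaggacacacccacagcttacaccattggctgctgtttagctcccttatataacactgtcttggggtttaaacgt
OAS3 chr12:112938224-112938473, plus strand: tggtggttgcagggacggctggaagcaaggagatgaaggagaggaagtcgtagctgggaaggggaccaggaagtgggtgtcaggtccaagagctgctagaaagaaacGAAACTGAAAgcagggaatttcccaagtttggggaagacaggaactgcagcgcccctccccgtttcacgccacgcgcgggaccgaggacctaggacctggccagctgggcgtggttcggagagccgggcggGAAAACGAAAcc
IFI27 chr14:94110486-94110735, plus strand: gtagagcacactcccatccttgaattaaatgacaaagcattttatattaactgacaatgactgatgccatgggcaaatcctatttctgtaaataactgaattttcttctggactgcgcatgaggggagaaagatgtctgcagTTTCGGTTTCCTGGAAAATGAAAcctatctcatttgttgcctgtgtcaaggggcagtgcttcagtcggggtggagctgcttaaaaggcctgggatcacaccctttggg
TAP1 chr6:32853705-32853954, minus strand: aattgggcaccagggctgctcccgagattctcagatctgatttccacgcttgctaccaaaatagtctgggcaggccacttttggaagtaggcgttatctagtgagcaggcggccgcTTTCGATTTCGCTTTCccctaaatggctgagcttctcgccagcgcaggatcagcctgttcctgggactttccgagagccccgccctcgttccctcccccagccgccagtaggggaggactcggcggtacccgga

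The capitals in IRF9 are a GAS core, and no ISRE core was found in its window. ISG20 has 1 ISRE core, IFIT1 and OAS3 have 2 each, and those of TAP1 overlap each other. In IFI27 a GAS core overlaps both ISRE cores. For the whole set, windows running from 250 bases before to 50 after a start were searched on both strands, and 33 members had such a window. An ISRE core lay in at least 1 window of 23 of the 33 (69.7%), against 4.38% of 27305 genes with a window. A GAS core lay in 12 of the 33 (36.4%), against 9.38% of all. Among tested members with a window, ISRE cores were found for 7 of the 10 that rose in SKOV3, 4 of the 4 that fell and 12 of the 17 not called. GAS cores were found for 7 of the 10 that rose in SKOV3, 0 of the 4 that fell and 5 of the 17 not called. In OVCAR5, ISRE cores were found for 7 of the 9 that rose, 1 of the 1 that fell and 15 of the 21 not called. GAS cores there were found for 3 of the 9 that rose, 0 of the 1 that fell and 9 of the 21 not called. These matches describe letters in a window and do not show that a factor binds there.

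IRF9, the DNA-binding subunit of ISGF3, rose in both lines, and more in SKOV3. Its level was 7.94 and 7.96 on the SKOV3 DMSO arrays and 10.18 and 10.33 on the lovastatin arrays. In OVCAR5 it was 7.92 and 7.95 in DMSO and 8.93 and 8.96 in lovastatin. The groups did not overlap in either line, and the DMSO arrays of both lines lay together. The log2 change was 2.31 ± 0.11 (SE; adjusted p = 2.82e-06) in SKOV3 and 1.01 ± 0.11 (SE; adjusted p = 6.84e-04) in OVCAR5. The changes differed by 1.29 ± 0.16 (SE; adjusted p = 8.79e-04).

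IRF7, the factor that amplifies type I interferon production, also rose in both lines, from different starting levels. It was 8.36 and 8.19 in SKOV3 DMSO and 9.63 and 9.80 in lovastatin, and 6.06 and 6.48 in OVCAR5 DMSO and 7.44 and 7.31 in lovastatin. No DMSO array reached a lovastatin array of its line. The log2 changes were 1.44 ± 0.16 (SE; adjusted p = 1.62e-04) and 1.11 ± 0.16 (SE; adjusted p = 0.00231), and their difference did not pass (0.33, adjusted p = 0.316). A second IRF7 probe rose by 1.76 in SKOV3 (adjusted p = 0.00125) and had a value of 0.82 in OVCAR5 (adjusted p = 0.0786, over all kept probes). IRF1, a factor that responds to interferon gamma, did not pass in either line. Its SKOV3 lovastatin arrays lay apart at 8.50 and 9.48, one below and one above the DMSO arrays at 9.14 and 9.11. In OVCAR5 it was 8.81 and 8.83 in DMSO and 9.52 and 9.07 in lovastatin (0.48, adjusted p = 0.273).

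**Figure D2:**
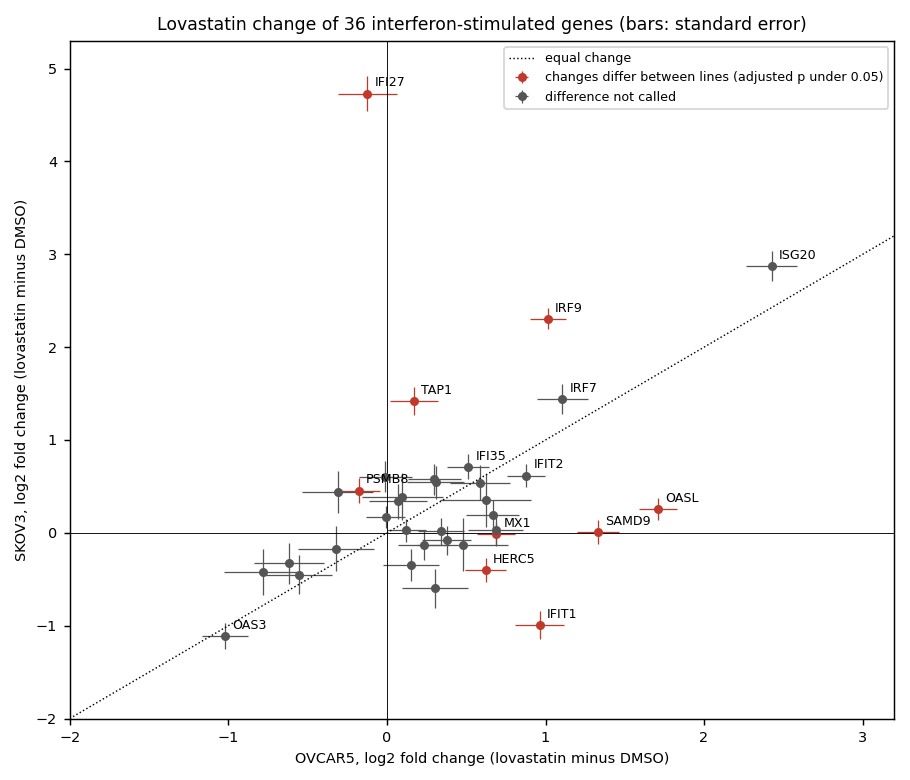
Log2 fold change on lovastatin of each of the 36 tested members in OVCAR5 (horizontal axis) and in SKOV3 (vertical axis); bars are standard errors and the dotted line marks equal change. Red points are the 9 members whose changes differed between the lines. ISG20, IRF7 and IRF9 lie at the upper right, OAS3 at the lower left, IFI27 far above the line, and IFIT1 and HERC5 in the quadrant of SKOV3 decrease and OVCAR5 increase.

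Among the genes of RNA sensing and RNA decay, ISG20, an exonuclease that degrades single-stranded RNA, had the largest called change of any member in OVCAR5 and the second largest in SKOV3. It was 6.55 and 6.56 in SKOV3 DMSO and 9.22 and 9.65 in lovastatin, and 8.58 and 8.35 in OVCAR5 DMSO and 10.88 and 10.91 in lovastatin. Treated and control arrays were far apart in both lines. The log2 change was 2.87 ± 0.16 (SE; adjusted p = 4.54e-06) in SKOV3 and 2.43 ± 0.16 (SE; adjusted p = 5.07e-05) in OVCAR5, and the difference between them was not called (0.45, adjusted p = 0.182).

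The OAS family split. OAS3, which makes the 2′-5′ oligoadenylates that activate RNase L, fell from 6.97 and 7.20 to 6.06 and 5.88 in SKOV3, a log2 change of -1.11 ± 0.14 (SE; adjusted p = 3.50e-04). In OVCAR5 it fell from 6.58 and 6.62 to 5.71 and 5.45, a change of -1.02 ± 0.14 (SE; adjusted p = 0.00194). Only 1 of these 2 lovastatin arrays detected the probe, and their lowest detected signals were 5.43 and 5.53, so the treated level lay near background. A second OAS3 probe was detected on no array. OAS3 was the single member that fell in both lines, and its groups overlapped in neither. OAS1, another synthetase of the family, had values of -0.42 and -0.78 that missed the threshold (adjusted p = 0.192 and 0.0552). OASL, a family member without synthetase activity that enhances RIG-I signalling, was detected on no SKOV3 array. In OVCAR5 it was 5.77 and 5.84 in DMSO and 7.43 and 7.60 in lovastatin, a change of 1.71 ± 0.12 (SE; adjusted p = 6.50e-05). None of the 4 OAS2 probes was detected on any array.

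The helicase IFIH1 (MDA5), a sensor of long double-stranded RNA, was likewise detected on no SKOV3 array. In OVCAR5 it rose from 5.88 and 5.87 to 6.49 and 6.63, by 0.68 ± 0.17 (SE; adjusted p = 0.0247). That call was lost when any of the 4 OVCAR5 arrays was left out (adjusted p up to 0.127). DDX60, a helicase reported to assist RIG-I-like receptors, was not called in SKOV3 (0.39, adjusted p = 0.237) or OVCAR5 (0.10, adjusted p = 0.833).

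The IFIT proteins bind foreign RNA ends and restrain translation. In OVCAR5, 3 of the 4 members of this family rose, against 13.5% of all genes. IFIT1, which recognises 5′ triphosphate RNA and caps that lack 2′-O methylation, went in opposite directions. In SKOV3 it fell from 6.85 and 6.75 to 6.01 and 5.61, by a log2 change of -0.99 ± 0.15 (SE; adjusted p = 9.30e-04). In OVCAR5 it rose from 7.67 and 7.73 to 8.73 and 8.59, by 0.96 ± 0.15 (SE; adjusted p = 0.00337). Groups were separate in both lines, and the difference of the changes was -1.95 ± 0.22 (SE; adjusted p = 5.19e-04). IFIT2 rose from 7.55 and 7.67 to 8.40 and 8.57 in OVCAR5, by 0.88 ± 0.12 (SE; adjusted p = 0.00171).

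In SKOV3, IFIT2 was detected on neither DMSO array (5.04 and 5.12) and on both lovastatin arrays (5.70 and 5.68). It was at least 1.19-fold higher in lovastatin (adjusted p = 0.00319), where the bound sets the lowest signal of a detected probe in place of the undetected level. Without background correction that call was lost (log2 change 0.19; adjusted p = 0.0856). IFIT3, an adaptor that stabilises the binding of IFIT1 to RNA, was 7.16 and 7.06 in OVCAR5 DMSO and 7.68 and 7.88 in lovastatin. The change was 0.67 ± 0.17 (SE; adjusted p = 0.0226), and a second probe gave 0.85 (adjusted p = 0.0150 over all kept probes). Leaving out any OVCAR5 array ended the call of the first probe (adjusted p up to 0.128). In SKOV3 the IFIT3 value was 0.19 (adjusted p = 0.376), and IFIT5 was detected on no DMSO array and on 1 lovastatin array of each line.

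ISG15 is a ubiquitin-like protein, joined to targets by the conjugating enzyme UBE2L6 and the ligase HERC5 and removed by USP18. HERC5 fell in SKOV3, from 11.27 and 11.23 to 10.73 and 10.96 (-0.40 ± 0.13 SE, adjusted p = 0.0308). It rose in OVCAR5, from 7.58 and 7.65 to 8.31 and 8.16 (0.62 ± 0.13 SE, adjusted p = 0.0106). The groups did not overlap in either line and the difference of the changes passed (-1.03, adjusted p = 0.00466). Each single-line call was fragile: the SKOV3 call was lost without any of 5 arrays, both SKOV3 DMSO arrays, the first SKOV3 lovastatin array and both OVCAR5 DMSO arrays (adjusted p 0.0509 to 0.117). The OVCAR5 call was lost without the first DMSO or the first lovastatin array (adjusted p = 0.0690 and 0.0805).

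ISG15 itself rose in SKOV3 from 8.93 and 9.08 to 9.27 and 9.82 (0.54 ± 0.18 SE, adjusted p = 0.0333), and its change in OVCAR5 was 0.31 (adjusted p = 0.259). UBE2L6 rose in SKOV3 from 10.15 and 10.16 to 10.47 and 10.99, by 0.58 ± 0.17 (SE; adjusted p = 0.0210), and a second probe by 0.65 (adjusted p = 0.00240 over all kept probes). In OVCAR5 the UBE2L6 value was 0.30 (adjusted p = 0.244). Both SKOV3 calls rested on the second lovastatin array: without it the changes were 0.27 for ISG15 (adjusted p = 0.120) and 0.32 for UBE2L6 (adjusted p = 0.0645). Both calls were also lost without either SKOV3 DMSO array, with changes of 0.47 and 0.62 for ISG15 and of 0.57 and 0.58 for UBE2L6. The ISG15 call was lost without either OVCAR5 lovastatin array too. Its change stayed at 0.54 there, since those arrays enter only the estimate of the spread. HERC6, the relative of HERC5, was not called in SKOV3 (-0.35, adjusted p = 0.136) or OVCAR5 (0.15, adjusted p = 0.593), and USP18 was detected on no array.

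Of the 4 membrane proteins, 1 rose in SKOV3, where 26.6% of all genes rose, and none was called in OVCAR5. IFITM1, IFITM2 and IFITM3 hinder fusion of viruses with cell membranes, and BST2 (tetherin) holds budding virions at the surface. IFITM1 was 7.33 and 7.42 in SKOV3 DMSO and 7.61 and 8.23 in lovastatin, a change of 0.54 ± 0.19 (SE; adjusted p = 0.0428). This call was lost without any of 7 arrays, all but the first SKOV3 lovastatin array, and the change was 0.23 without the second SKOV3 lovastatin array (adjusted p = 0.158). In OVCAR5, where it was 7.34 and 7.36 in DMSO and 7.98 and 7.88 in lovastatin, it missed the threshold (0.59, adjusted p = 0.0584). IFITM2 and IFITM3 had log2 changes of 0.03 and 0.17 in SKOV3 and of 0.12 and -0.01 in OVCAR5, none of them called. These genes lie within one cluster on chromosome 11 and have closely similar sequences, so their probes may share targets. BST2 read 10.30 and 10.38 in SKOV3 DMSO and 9.78 and 10.55 in lovastatin, groups that overlapped (-0.17, adjusted p = 0.583), and was detected on no OVCAR5 array.

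Of the other antiviral effectors, MX1 and SAMD9 rose in OVCAR5 and had no call in SKOV3. SAMD9, which restricts poxviruses, was 6.96 and 6.86 in OVCAR5 DMSO and 8.29 and 8.19 in lovastatin (1.33 ± 0.13 SE, adjusted p = 3.64e-04). In SKOV3 its arrays read 8.27 and 8.09 in DMSO and 8.29 and 8.09 in lovastatin, groups that overlapped. The OVCAR5 lovastatin arrays thus reached the range of SKOV3 arrays for this probe, and the changes differed by -1.32 ± 0.18 (SE; adjusted p = 0.00150). MX1, a dynamin-like GTPase that blocks influenza virus, was 8.67 and 8.56 in OVCAR5 DMSO and 9.34 and 9.27 in lovastatin (0.69 ± 0.12 SE, adjusted p = 0.00457).

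In SKOV3 the MX1 probe was detected on 1 array of each group, with overlapping readings of 5.41 and 5.33 in DMSO and 5.41 and 5.31 in lovastatin. The difference of the MX1 changes was -0.70 ± 0.17 (SE; adjusted p = 0.0159), and it lost its call without the first SKOV3 DMSO array, the second OVCAR5 DMSO array or the first OVCAR5 lovastatin array (adjusted p 0.0586 to 0.0674). MX2, the relative that restricts HIV-1, was 9.75 and 9.76 in OVCAR5 DMSO and 9.94 and 10.25 in lovastatin, which was not called (0.34, adjusted p = 0.127). No SKOV3 array detected MX2, no array of either line TRIM22, and 1 OVCAR5 lovastatin array SAMD9L.

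IFI27, a small hydrophobic protein of mitochondria and the nuclear envelope, showed the largest change of any tested member in SKOV3. It was detected on neither SKOV3 DMSO array, at 4.97 and 5.24, and read 9.62 and 10.04 on the lovastatin arrays, at least 21.1-fold higher (adjusted p = 1.21e-06). No OVCAR5 array detected it, with 5.19 and 4.95 in DMSO and 4.82 and 5.08 in lovastatin. It was therefore detected on both treated arrays of SKOV3 and on no other array, and the test of the difference between the lines passed (adjusted p = 4.16e-05). The size of that difference is not measured, since 3 of the 4 groups lay at background. IFI6, of the same protein family, was not called in SKOV3 by the probe used (0.34, adjusted p = 0.161), whereas a second probe rose by 0.64 (adjusted p = 0.0189 over all kept probes). Neither IFI6 probe was called in OVCAR5.

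IFI35, a leucine-zipper protein that binds NMI, rose in both lines. It was 8.64 and 8.53 in SKOV3 DMSO and 9.15 and 9.44 in lovastatin (0.71 ± 0.13 SE, adjusted p = 0.00246), and in OVCAR5 9.01 and 9.02 in DMSO and 9.51 and 9.55 in lovastatin (0.51 ± 0.13 SE, adjusted p = 0.0264). The groups were apart in both lines, yet the OVCAR5 call was lost without any 1 of the OVCAR5 arrays (adjusted p up to 0.122). IFI44 fell in SKOV3, from 6.98 and 6.77 to 6.0 and 6.55 (-0.60 ± 0.21 SE, adjusted p = 0.0418), and was not called in OVCAR5 (0.30, adjusted p = 0.338). The SKOV3 call was lost without any of 5 arrays, namely both SKOV3 DMSO arrays, the first SKOV3 lovastatin array and both OVCAR5 lovastatin arrays (adjusted p 0.0528 to 0.219). IFI44L, its neighbour, was detected on no SKOV3 array and had a value of -0.56 (adjusted p = 0.0933) in OVCAR5. XAF1, an antagonist of the apoptosis inhibitor XIAP, was not called in SKOV3 (-0.33, adjusted p = 0.247) or OVCAR5 (-0.62, adjusted p = 0.0792).

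PARP9 and the ubiquitin ligase DTX3L form a complex that acts in interferon signalling and DNA repair, and PARP14 is a related mono-ADP-ribosyltransferase. PARP14 rose in SKOV3 from 7.37 and 7.51 to 7.80 and 8.29 (0.60 ± 0.17 SE, adjusted p = 0.0165), with no overlap of the groups. It was not called without the first SKOV3 DMSO array (0.54; adjusted p = 0.0930) or without the second SKOV3 lovastatin array (0.36; adjusted p = 0.0532). In OVCAR5 its change was -0.01 (adjusted p = 0.975). PARP9 was not called in SKOV3 (-0.08, adjusted p = 0.689) or OVCAR5 (0.38, adjusted p = 0.121), and DTX3L was detected on no SKOV3 array and not called in OVCAR5 (0.23, adjusted p = 0.343). PARP9 and DTX3L overlap by 447 bases on opposite strands of chromosome 3.

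Of the 3 antigen processing members, 2 rose in SKOV3, where 26.6% of all genes rose, and none was called in OVCAR5. TAP1 is a subunit of the transporter that carries peptides into the endoplasmic reticulum, and PSMB8 and PSMB9 are catalytic subunits of the immunoproteasome. TAP1 was 9.07 and 9.07 in SKOV3 DMSO and 10.33 and 10.65 in lovastatin, and 9.34 and 9.19 in OVCAR5 DMSO and 9.57 and 9.30 in lovastatin. The SKOV3 groups were well apart and the OVCAR5 groups overlapped. The log2 change was 1.42 ± 0.15 (SE; adjusted p = 1.24e-04) in SKOV3 and 0.17 (adjusted p = 0.470) in OVCAR5, and the difference was 1.25 ± 0.22 (SE; adjusted p = 0.00405).

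PSMB8 rose in SKOV3 from 8.92 and 9.16 to 9.39 and 9.60 (0.46 ± 0.13 SE, adjusted p = 0.0212). Its 3 other kept probes gave 0.54 (adjusted p = 0.0260), 0.52 and -0.36 (adjusted p = 0.0893 and 0.0796, over all kept probes), so the probes disagreed in sign. The call was lost without the first SKOV3 DMSO array (0.34; adjusted p = 0.135) or the second SKOV3 lovastatin array (0.35; adjusted p = 0.0773). PSMB9 was not called in SKOV3 (0.44, adjusted p = 0.135) or OVCAR5 (-0.31, adjusted p = 0.365). Its SKOV3 lovastatin arrays read 5.92 and 6.69, both above the DMSO arrays (5.80 and 5.92), the first by less than 0.01. TAP1 and PSMB9 lie 487 bases apart on opposite strands of chromosome 6, and PSMB8 lies 529 bases from TAP1.

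The presentation genes around these members, from a list of 14 of which 11 were tested, were read beside them. In SKOV3, 7 of the 11 rose and 2 fell, against 26.6% and 23.9% of all genes. In OVCAR5, 0 rose and 1 fell, against 13.5% and 9.29% of all genes. The class I heavy chain HLA-B was 9.02 and 8.94 in SKOV3 DMSO and 10.52 and 10.45 in lovastatin, and in OVCAR5 9.37 and 9.57 in DMSO and 9.56 and 9.37 in lovastatin. The groups were apart in SKOV3 and overlapped in OVCAR5. Its change was 1.51 ± 0.13 (SE; adjusted p = 3.85e-05) in SKOV3 and -0.01 (adjusted p = 0.981) in OVCAR5. HLA-F and HLA-G changed by 1.92 and 2.05, HLA-E by 0.95, the light chain B2M by 0.68, and TAPBP (tapasin, which bridges TAP and class I molecules) by 1.18 in SKOV3. Averaging all kept probes of TAPBP gave 0.41 in SKOV3. Of the proteasome activator subunits, PSME1 rose there (0.37, adjusted p = 0.0250) and PSME2 fell (-0.43, adjusted p = 0.0160). Their calls were lost without either SKOV3 DMSO array, and that of PSME1 also without the first lovastatin array (adjusted p 0.0536 to 0.0980). The class I genes are close copies of each other, so it is uncertain which of them each probe read. TAP2, the partner of TAP1, moved the other way, at 7.0 and 6.82 in SKOV3 DMSO and 6.52 and 6.27 in lovastatin (-0.51 ± 0.14 SE, adjusted p = 0.0169). It also fell in OVCAR5 (-0.70, adjusted p = 0.00939). The SKOV3 call of TAP2 was lost without the first DMSO or the second lovastatin array (-0.42 and -0.38; adjusted p = 0.105 and 0.0687), and the OVCAR5 call without the second DMSO or the first lovastatin array (-0.64 and -0.61; adjusted p = 0.0650 and 0.0727).

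**Figure D3:**
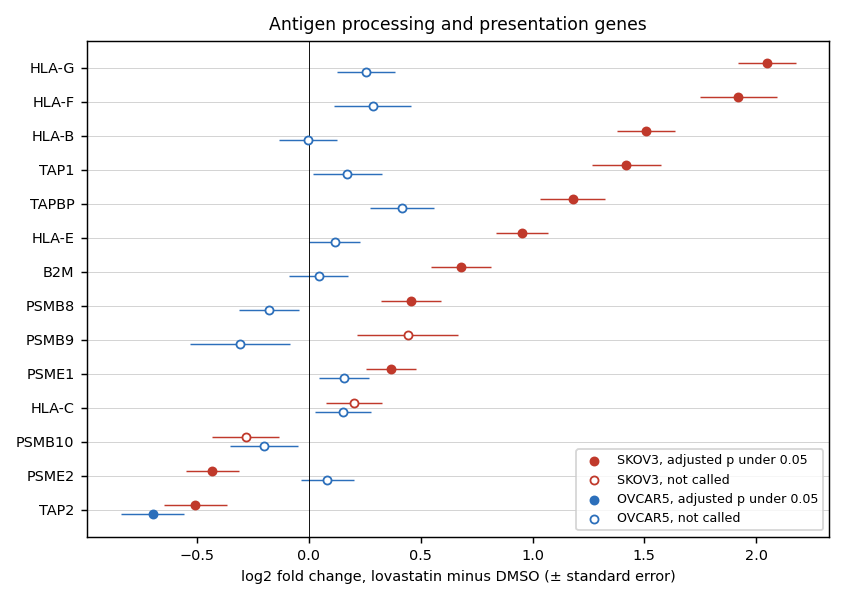
Log2 fold change on lovastatin with its standard error (horizontal axis) for the 3 antigen processing members and 11 antigen presentation genes (rows), in SKOV3 (red) and OVCAR5 (blue). Filled points passed an adjusted p under 0.05. The SKOV3 points of HLA-G, HLA-F, HLA-B and TAP1 lie between 1.42 and 2.05, while the OVCAR5 points of these genes lie between -0.01 and 0.29; TAP2 lies below 0 in both lines.

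The remaining genes of the pathway were counted from lists of ligands, receptors, sensors, inhibitors and further induced genes. Beside the counts of each list stand the shares over all genes. These were 26.6% higher and 23.9% lower in SKOV3, and 13.5% and 9.29% in OVCAR5. All 8 interferon ligand genes had a probe, none was tested, and none was detected on both arrays of any group. Of 9 tested receptor and kinase genes, 1 rose and 1 fell in SKOV3, and 1 rose and 0 fell in OVCAR5. The riser was IFNGR2, a chain of the interferon gamma receptor, with 0.77 in SKOV3 (adjusted p = 7.89e-04) and 0.96 in OVCAR5 (adjusted p = 9.54e-04). IFNAR1, a chain of the type I receptor, fell in SKOV3 by a call at -0.37 (adjusted p = 0.0487) that was lost without any of 7 arrays, all but the second SKOV3 lovastatin array (-0.47 to -0.24; adjusted p 0.0648 to 0.232).

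Of 6 tested sensors and relays, 2 rose and 0 fell in SKOV3, and 2 rose and 1 fell in OVCAR5. STING1, the adaptor of cytosolic DNA sensing, rose by 0.99 ± 0.15 (SE; adjusted p = 9.28e-04) in SKOV3 and by 1.0 ± 0.15 (SE; adjusted p = 0.00284) in OVCAR5. CGAS, the DNA sensor that signals to STING1, fell in OVCAR5 (-0.88, adjusted p = 0.00166) and was detected on no SKOV3 array. TBK1 and IKBKE, kinases that activate interferon regulatory factors, rose in 1 line each, TBK1 in SKOV3 (0.48, adjusted p = 0.0162) and IKBKE in OVCAR5 (0.81, adjusted p = 0.0325). The TBK1 call was lost without the second SKOV3 DMSO or the first SKOV3 lovastatin array, and the IKBKE call without any OVCAR5 array but the second DMSO array (adjusted p 0.0618 to 0.179). Of 7 inhibitors, 2 rose in SKOV3, and 1 rose and 1 fell in OVCAR5. SOCS1, a feedback inhibitor of Janus kinases, was detected on neither SKOV3 DMSO array (4.96 and 4.67) and on both lovastatin arrays (5.81 and 6.32), at least 1.55-fold higher (adjusted p = 0.00184). In OVCAR5 SOCS1 was likewise detected on neither DMSO array (5.47 and 5.41) and on both lovastatin arrays (5.77 and 6.29). It was at least 1.40-fold higher there without a call (adjusted p = 0.0903), and the changes did not differ by the test (adjusted p = 0.153). PTPN6, a phosphatase, rose in SKOV3 (0.60, adjusted p = 0.0112) and OVCAR5 (0.61, adjusted p = 0.0231), and PTPN2, another, fell in OVCAR5 (-0.44, adjusted p = 0.0261). These calls were lost without the second SKOV3 DMSO array for PTPN6 in SKOV3, any OVCAR5 array but the first lovastatin array for PTPN6 in OVCAR5, and any OVCAR5 array for PTPN2 (adjusted p 0.0659 to 0.142).

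Among 11 tested further interferon-induced genes, 2 rose and 4 fell in SKOV3, and 2 rose and 1 fell in OVCAR5. IFI16, a nuclear DNA sensor, rose in SKOV3 (1.31 ± 0.14 SE, adjusted p = 1.08e-04) and had a value of 0.01 (adjusted p = 0.974) in OVCAR5. ZC3HAV1, the zinc-finger antiviral protein, and RNF213, a ubiquitin ligase, fell in SKOV3 (-0.55 and -1.04) and rose in OVCAR5 (1.28 and 0.45). The ZC3HAV1 call in SKOV3 was lost without the first DMSO array (-0.46; adjusted p = 0.0676), and that of RNF213 in OVCAR5 without any OVCAR5 array (adjusted p 0.115 to 0.186). PLSCR1, a phospholipid scramblase, fell in SKOV3 (-0.79, adjusted p = 0.00971) and in OVCAR5 (-0.90, adjusted p = 0.0125). LGALS3BP, a secreted glycoprotein, rose in SKOV3 (0.63, adjusted p = 0.0131) and ADAR, which edits double-stranded RNA, fell there (-0.40, adjusted p = 0.0327). The PLSCR1 calls were lost without the second SKOV3 DMSO array, and without the second OVCAR5 DMSO or first OVCAR5 lovastatin array. The LGALS3BP call was lost without the first SKOV3 array of either treatment, and the ADAR call without any SKOV3 array but the second lovastatin array and without either OVCAR5 lovastatin array (adjusted p 0.0532 to 0.134). RSAD2, CMPK2, PML, EPSTI1, GBP2, RTP4, CXCL10 and CXCL11 had probes too dim to be tested.

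Tested as differences, the lovastatin changes of 9 of the 36 members differed between the lines: 4 were higher in SKOV3 and 5 lower. Over all genes 12.8% differed with a higher and 14.5% with a lower change in SKOV3, so the members' shares, 11.1% and 13.9%, lay near the background. The 4 were IFI27, IRF9, TAP1 and PSMB8 (0.63, adjusted p = 0.0390). The 5 were IFIT1, OASL (-1.46, adjusted p = 6.46e-04), SAMD9, HERC5 and MX1. For PSMB8 the other kept probes gave differences of 0.82, 0.53 and -0.28 (adjusted p = 0.0351, 0.256 and 0.372, over all kept probes), so the probes disagreed in sign. OASL was not detected in SKOV3 and IFI27 not in OVCAR5, so for these one of the 2 changes lies between levels not above background. MX1 was detected in SKOV3 on 1 array of each group, so its SKOV3 change lies between levels near background. Without the first SKOV3 lovastatin array 9 members had a higher change in SKOV3. The PSMB8 difference lost its call without any of 6 arrays, all but the second SKOV3 DMSO and the first SKOV3 lovastatin array (0.52 to 0.68; adjusted p 0.0676 to 0.127).

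Without lovastatin, many members differed between the lines, as did many of all genes. In total 23 of the 36 members were called, against 6940 of all 11218 genes, so such differences were not particular to the members. In DMSO, 9 members were higher in SKOV3 and 14 higher in OVCAR5, 25% and 38.9% of the 36, against 32.3% and 29.6% of all genes. The median difference was -0.27, SKOV3 minus OVCAR5 (all genes, 0.01). This median depended on the processing: it was -0.03 in the authors' log2 values, normalized per line, and -0.14 without a filter on dim probes. BST2 was 10.30 and 10.38 in SKOV3 and undetected in OVCAR5 at 5.06 and 5.19, at least 27.7-fold higher in SKOV3 (adjusted p = 4.59e-07). MX2 was the reverse, undetected in SKOV3 at 4.57 and 4.39 and 9.75 and 9.76 in OVCAR5, at least 19.9-fold higher there (adjusted p = 2.65e-08). SKOV3 had the higher level also for HERC5 (log2 difference 3.64 ± 0.13 SE, adjusted p = 1.10e-07), IRF7 (2.0), SAMD9 (1.27), HERC6 (1.13), PARP9 (0.73), IFITM2 (0.71), IFITM3 (0.65) and OAS3 (0.49).

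OVCAR5 had the higher level, given as SKOV3 minus OVCAR5 on the log2 scale, of MX1 (-3.24 ± 0.12 SE, adjusted p = 1.20e-07), IFIT2 (at least 4.5-fold), PSMB9 (-2.19), ISG20 (-1.91), ISG15 (-1.78), IFIT3 (-1.55), IFI44 (-1.36) and IFIT1 (-0.90). The same direction was called for OASL, IFIH1 and DTX3L, which SKOV3 DMSO arrays did not detect (at least 1.29-, 1.36- and 1.27-fold), and for IFI35 and PSMB8 (-0.43 and -0.43). The other kept PSMB8 probes gave -0.60, -0.35 and 0.10 (adjusted p = 0.0129, 0.0715 and 0.710, over all kept probes), so the probes disagreed in sign. A second kept PSMB9 probe gave -1.10. MX1 and IFIT3 were each detected on 1 SKOV3 DMSO array, so the sizes of their differences rest on SKOV3 levels near background. Next to each other on chromosome 21, 11164 bases apart, MX2 and MX1 were both higher in OVCAR5, and HERC6 and HERC5, 14021 bases apart on chromosome 4, both higher in SKOV3. OAS3 was higher in SKOV3, and its neighbour OAS1, 5254 bases away, was not called (-0.55, adjusted p = 0.0858). PARP9 was higher in SKOV3, whereas DTX3L, which overlaps it on chromosome 3, was higher in OVCAR5. Whether neighbours share a direction was not tested. The calls of DTX3L, IFI35, OAS3 and PSMB8 were lost when some single DMSO arrays were left out: the first of either line for DTX3L, any but the first SKOV3 array for IFI35 and OAS3, and any but the second SKOV3 array for PSMB8 (adjusted p 0.0584 to 0.143).

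**Figure D4:**
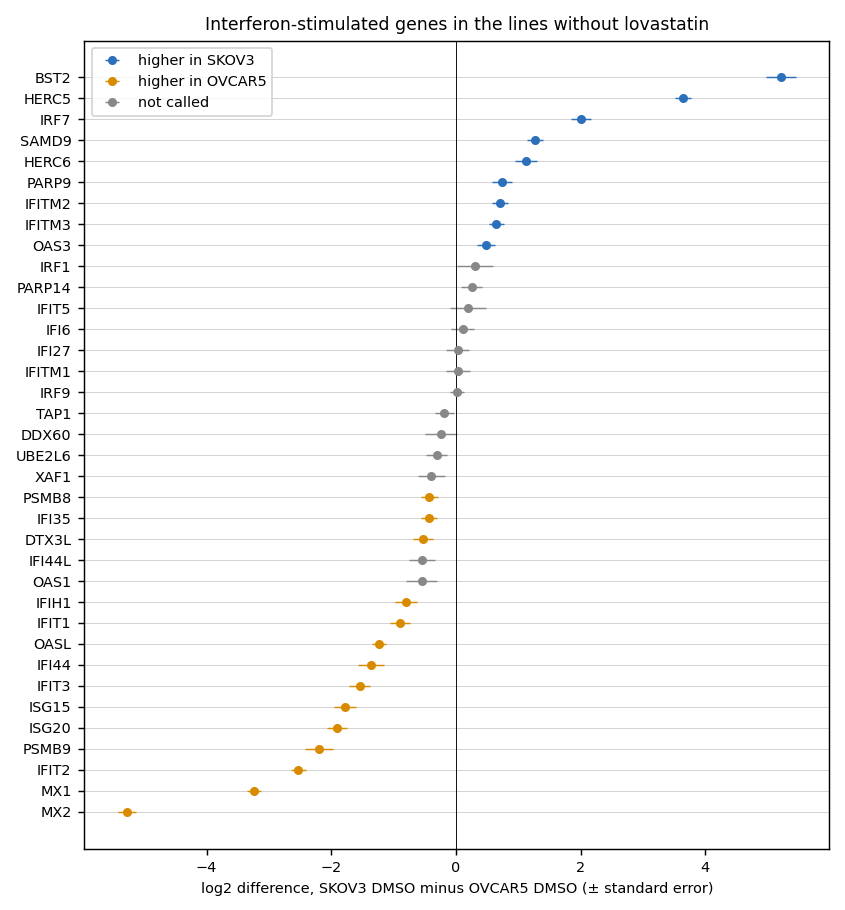
Log2 difference between SKOV3 and OVCAR5 in DMSO with its standard error (horizontal axis) for the 36 tested members (rows, sorted). Blue points were called higher in SKOV3, orange points higher in OVCAR5, and grey points were not called; BST2 and HERC5 lie farthest to the right and MX2 and MX1 farthest to the left.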

How the data were processed

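RNA of SKOV3 and OVCAR5 cells was read on 8 Illumina beadchips, 2 per line and treatment, and groups were taken from the labels. The authors deposited bead intensity per probe, not normalized, per the file headers, with a detection p-value for each. A second deposited table holds their log2 values, made with limma per the submitters' processing notes, of a version and with settings not given in the sources used here. It agreed within 0.01 log2 with neqc of each line alone for 99.997% of SKOV3 and 99.987% of OVCAR5 values (array medians 4.81 and 4.74, 1 value missing). Neither scan nor slide was named there.

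All 8 arrays were normalized together from the intensities (neqc, offset 16, limma 3.58.1 in R 4.3.3). Of 30113 probes with 1 symbol in the platform annotation (8 had several, 17202 were unnamed here), 14851 reached a detection p under 0.01 on 2 or more arrays and were kept. The brightest kept probe stood for each gene. A model of 4 group means was fitted to 11218 genes with limma (lmFit, eBayes), with Benjamini-Hochberg adjustment over all and calls under 0.05. Where a group detected a probe on neither array, its level was replaced by the higher of its own value and the lowest signal of probes detected on that array, which gives an "at least" fold. Sequences came from RefSeq windows on GRCh38.p14 and figures from matplotlib 3.10.9 in Python 3.11.15. The fit was tested on simulated data. Every member was named; members, lists and rules were chosen with earlier results of these data known. Alternatives were the authors' table, no background correction, other filters, the mean of kept probes, the replicate block, the arrays of 1 line alone, and leaving out each array.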

Additional observations from a re-analysis of the deposited data

Results flagged for a closer look

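The changes on lovastatin of 9 members and 11 other genes of the pathway differed between the lines by the test of the difference itself (limma, adjusted p under 0.05, SKOV3 change minus OVCAR5 change). Over all genes 12.8% had a higher and 14.5% a lower change in SKOV3, against 11.1% and 13.9% of the 36 members. By list, 0 of 9 tested receptors and kinases, 1 of 6 sensors and relays and 1 of 7 inhibitors differed. Of 11 further interferon-induced genes, 1 had a higher and 2 a lower change in SKOV3. Of 11 antigen presentation genes, 6 had a higher change there. IFI27 had a fitted difference of 4.85, whose size is not measured because the SKOV3 DMSO arrays and all OVCAR5 arrays did not detect it (at least 21.1-fold higher on lovastatin in SKOV3). The difference was 1.29 for IRF9 (2.31 in SKOV3 and 1.01 in OVCAR5), 1.25 for TAP1 (1.42 in SKOV3 and 0.17 in OVCAR5) and 0.63 for PSMB8 (0.46 in SKOV3 and -0.18 in OVCAR5). The other kept PSMB8 probes gave differences of 0.82, 0.53 and -0.28. In the other direction, IFIT1 differed by -1.95 (-0.99 in SKOV3 and 0.96 in OVCAR5), OASL by a fitted -1.46 (1.71 in OVCAR5 and not detected in SKOV3), SAMD9 by -1.32 (0.01 in SKOV3 and 1.33 in OVCAR5), HERC5 by -1.03 (-0.40 in SKOV3 and 0.62 in OVCAR5) and MX1 by -0.70 (-0.01 in SKOV3 and 0.69 in OVCAR5). For IFIT1 and HERC5 the calls in the lines had opposite signs. The SKOV3 readings of MX1 lay near background, with 1 array of each group detecting it.

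Antigen presentation genes with a higher change in SKOV3 were HLA-G (1.79), HLA-F (1.63), HLA-B (1.51), HLA-E (0.84), TAPBP (0.76) and B2M (0.64). The TAPBP difference was 0.01 when all its kept probes were averaged. Leaving out any 1 of 6 arrays ended the TAPBP call (adjusted p up to 0.0930), and any 1 of 7 that of B2M (adjusted p up to 0.134). The first SKOV3 lovastatin array was the exception for both, and the first OVCAR5 DMSO array for TAPBP.

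IFI16 differed by 1.30, CGAS by a fitted 0.74 (-0.88 in OVCAR5, with no SKOV3 array detecting it) and PTPN2 by 0.52, while RNF213 differed by -1.49 and ZC3HAV1 by -1.83. The PTPN2 call was lost without any 1 of 7 arrays, all but the first SKOV3 lovastatin array (adjusted p up to 0.136), and the CGAS call without the first OVCAR5 DMSO or the second OVCAR5 lovastatin array (adjusted p = 0.0621 and 0.0530). No cause of these differences was tested.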

How the results depend on the processing

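Of 174 summary values recomputed under alternatives, 160 stayed within 1.5 times the count or within the 0.119 spread of the member median. Some of them could not move, so the 160 overstates the stability. The replicate block leaves every median as it was. A line's median change does not depend on the arrays of the other line, nor the median between the lines on lovastatin arrays. Leaving out such an array changes only the estimate of the spread, and so the calls. Leaving out 1 array at a time gave 7 to 15 risen and 2 to 6 fallen members in SKOV3 (median 0.07 to 0.30) and 8 to 13 and 1 to 3 in OVCAR5 (median 0.26 to 0.35). Differences between the changes ranged from 3 to 9 higher and 4 to 7 lower (median -0.12 to 0.17), and the lines in DMSO from 8 to 9 and 12 to 15 (median -0.30 to -0.24). The 7 occurred without the second SKOV3 lovastatin array. Over all genes, OVCAR5 calls fell from 2558 to as few as 1355 without 1 OVCAR5 array. Fallen members numbered 2 in SKOV3 with its 4 arrays alone, and 2 in OVCAR5 without background correction and 2 with the stricter filter. The median between the lines was -0.0316 in the authors' table, normalized per line, and -0.14 without a filter. Reversed were PNPT1 in SKOV3 (-0.44, main 0.26), and HLA-F (1.47, main -0.06) and ZC3HAV1 (-0.84, main 0.02) between the lines, all with the mean of kept probes; no member reversed. Calls held under all settings for 8 of 16 members in SKOV3, 9 of 13 in OVCAR5, 7 of 9 differences and 19 of 23 line contrasts. Without a filter, 11 of 40 members rose and 3 fell in SKOV3, 13 and 1 in OVCAR5.

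Whether equal replicate numbers mark paired samples is unstated in the labels. Deviations of same-numbered arrays correlated at 0.227 for the SKOV3 groups, -0.217 for the lovastatin groups and near 0 otherwise. With 1 difference per group these values cannot decide whether samples were paired. With the replicate block, 12 members rose and 3 fell in SKOV3 (IFI44 was lost), and 12 and 1 in OVCAR5. The cause of each change was not tested. Signal near background and 2 arrays per group limit what the dim members can show.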
